A study of Bos taurus with 8 samples.

Results

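Fibroblast and mesenchymal identity genes were followed in bovine embryonic stem cells (bESCs) that had left a layer of mouse fibroblasts. The set held 10 genes of the 32640 in the deposited table: PRRX1, PRRX2, TWIST2 and TCF21 (transcription factors), PDGFRB, THY1, CD248 and FAP (proteins of the cell surface), S100A4 (a calcium-binding protein inside the cell) and LOX (a secreted enzyme). Collagens were not part of the set. The genes were selected on their role, with their counts in these same libraries already in view, so their values are given as a description with no test of their own.

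The libraries came from 4 XX bESC lines, A, C, D and E, established from blastocyst-stage embryos in NBFR medium. Each line was sequenced on MEF (irradiated CF1 mouse embryonic fibroblasts that serve as feeders) at passage 15 to 17 and in feeder-free conditions on vitronectin (VTN) at passage 20 to 22, always in 5% O2, which gave 4 libraries per condition. The sample titles use the medium code NBFRA for both conditions, whereas the methods add Activin A for feeder-free culture. The MEF cultures hold mouse cells beside bovine ones, so passage and the presence of feeders changed together with the matrix and cannot be told apart.

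Fibroblasts are recognised by transcription factors that hold a mesenchymal state, by receptors that answer growth factors of neighbouring cells, and by enzymes that build or remodel the matrix around them. Pluripotent cells of the primed type have little of this programme until they leave pluripotency toward mesoderm or neural crest. A feeder layer is made of such cells, and where mouse and bovine cells share a dish a mouse read from a conserved exon can align to the bovine genome. The study describes subtracting, from the matrices of bESCs on MEF, what a pure MEF sample gave on the bovine genome. That sample was not analysed here, so any count that came from feeders was left in or taken out before deposit and could not be traced.

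All 10 genes were in the table with values. Total counts ranged from 44268717 to 102351560 per library, the largest being the feeder-free library of line D. Levels are given in CPM, counts relative to library size after scaling by the trimmed mean of M-values (TMM). Counts were often even, 71.9% of those between 1 and 20, and whether reads or pairs were counted is not stated, so a count of 2 may be 1 pair. The cells were labelled as embryonic stem cells, and 8 pluripotency markers with values, POU5F1 and LIN28A among them, were all detected. They summed to 4122 to 4586 CPM on MEF and 3575 to 3763 CPM in feeder-free conditions, lower in 4 of 4 lines (two-sided exact permutation test of log2 sums, p = 0.0286, adjusted p = 0.08 over 14 lists). Of the 10 genes, 7 passed edgeR's filter on low counts and entered the fit over 15744 genes, and TWIST2, FAP and TCF21 did not.

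PRRX1 and TWIST2 had counts in every MEF library and were at or near 0 in most feeder-free libraries. PRRX1, a paired-related homeobox factor of limb and craniofacial mesenchyme (chromosome 16 of ARS-UCD2.0, 38200205 to 38286239), had 48, 141, 127 and 45 counts on MEF in lines A, C, D and E. In feeder-free conditions it had 0, 3, 62 and 2 counts in the same lines. These are levels of 1.15, 2.56, 2.62 and 1.02 CPM on MEF against 0, 0.0565, 0.606 and 0.0385 CPM. Every feeder-free library lay below every MEF library, and the feeder-free library of line D stood above the other 3.

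The mean level of PRRX1 on MEF, 1.84 ± 0.871 CPM (SD, n = 4), was 10.5-fold that in feeder-free conditions, 0.175 ± 0.288 CPM (SD, n = 4). Its fitted log2 fold change, feeder-free over MEF, was -3.27 (standard error 1.05), and without the feeder-free library of line D it was -5.74. Since PRRX1 passed the filter through its MEF libraries, a difference in this direction was built into its being tested. In bulk RNA, fewer cells with the transcript and less transcript per cell cannot be told apart.

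TWIST2, a basic helix-loop-helix factor of dermal and other mesenchyme (chromosome 3, 118051375 to 118103634), had 3, 26, 32 and 2 counts on MEF in lines A, C, D and E and 0 counts in all 4 feeder-free libraries. With a floor of 3 counts in place of 0 over the 4 feeder-free libraries together, it was 28.5-fold higher on MEF. With a floor of 6 counts, chosen after seeing the data, it was 14.3-fold higher. These folds take the MEF counts as exact, so they are not lower limits. The MEF libraries of lines C and D held most of its counts, and those of lines A and E were at or under 3 counts. Its level on MEF was 0.312 ± 0.303 CPM (SD, n = 4).

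FAP, fibroblast activation protein, a serine protease of the surface of activated fibroblasts (chromosome 2, 34192193 to 34271389), was close to the limit of detection. It had 4 counts in the MEF library of line C and 6 in that of line E, and 0 in the other 6 libraries. Over the groups this is 10 counts on MEF against 0, which is 4.53-fold with the same floor of 3 counts and 2.26-fold with a floor of 6. The MEF counts were again taken as exact, so these folds are not lower limits. Both conditions include libraries at 0, so the groups overlap, and on MEF the lines ran E, C and then A and D, not the order of TWIST2.

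TCF21, a factor of epicardial and visceral mesenchyme (chromosome 9, 72066865 to 72069838), had 0 counts in all 8 libraries. A count of 0 allows up to 0.072 CPM in the shallowest library and 0.0293 CPM in the deepest, for counting error only. A total of 9375 genes, 28.7% of those with values, were at 0 in all libraries, among them LGALS1, a galectin gene expressed by most mesenchymal cells, so a 0 in this table was not read as absence of the transcript.

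**Figure D1:**
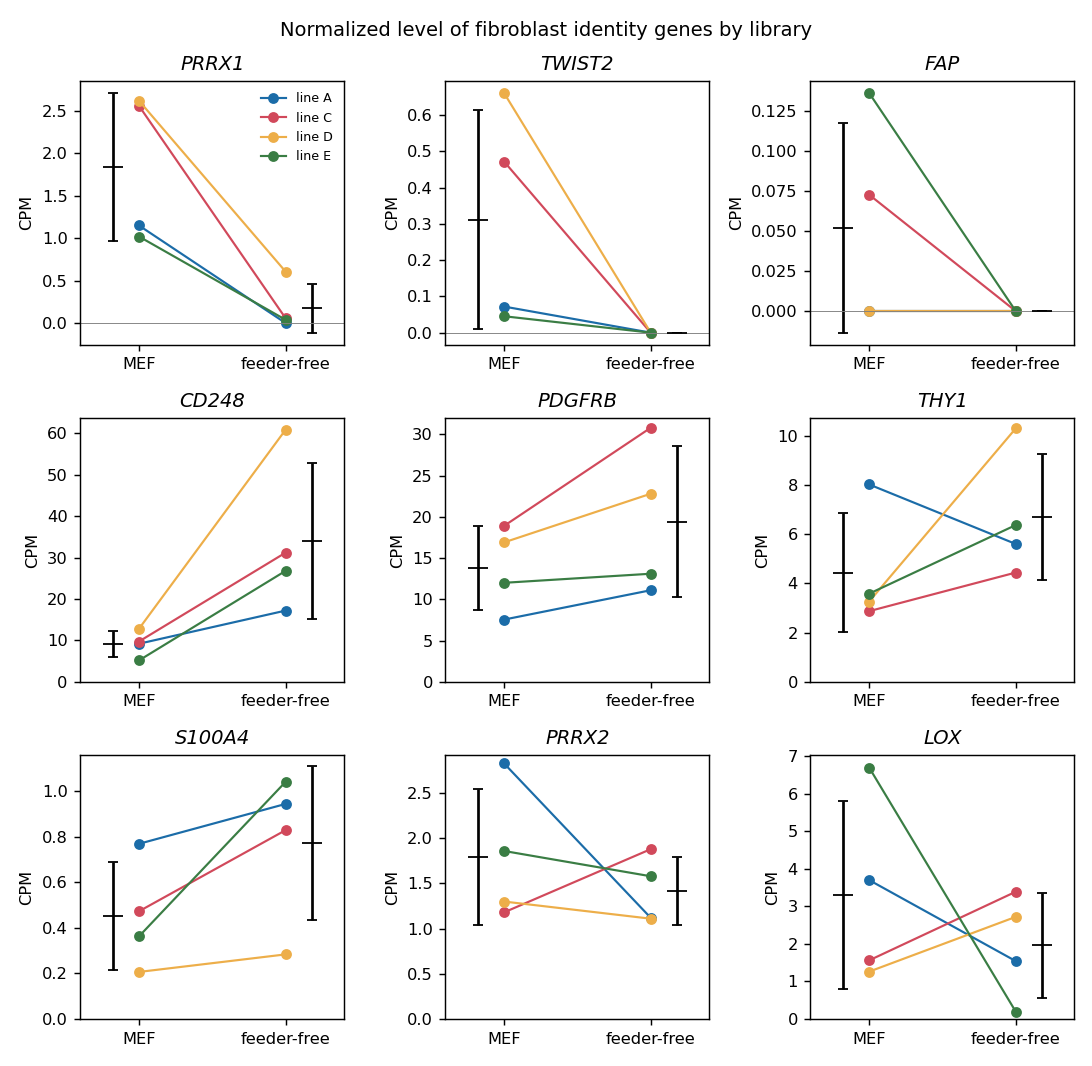
Level in CPM (y axis, linear, a different range in each panel) of 9 of the 10 genes on MEF and in feeder-free conditions. Each coloured line joins the 2 libraries of a cell line, and black bars are the mean ± SD of 4 libraries. PRRX1, TWIST2 and FAP run down to or toward 0 in feeder-free conditions, CD248 runs up in 4 of 4 lines, and the lines cross for LOX. TCF21, at 0 in all libraries, is not drawn.

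The surface genes CD248, PDGFRB and THY1 lay on the other side, with higher mean levels in feeder-free conditions. CD248, or endosialin, a surface glycoprotein of pericytes and stromal fibroblasts (chromosome 29, 44370002 to 44372627), was at 9.19, 9.73, 12.8 and 5.16 CPM on MEF in lines A, C, D and E and at 17.2, 31.2, 60.9 and 26.8 CPM in feeder-free conditions. The groups did not overlap, and the feeder-free library of line D was the highest of all. The feeder-free mean of 34.0 ± 18.8 CPM (SD, n = 4) was 3.69-fold the mean on MEF of 9.21 ± 3.12 CPM (SD, n = 4).

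The fitted log2 fold change of CD248 was 1.89 (standard error 0.40). Its log2 ratio within a line was 0.91 in A, 1.68 in C, 2.25 in D and 2.37 in E. Leaving out each library in turn gave log2 fold changes of 1.44 to 2.10.

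PDGFRB, a receptor tyrosine kinase for platelet-derived growth factor on pericytes and fibroblasts (chromosome 7, 61473643 to 61511234), was at 7.54, 18.9, 16.9 and 12 CPM on MEF in lines A, C, D and E and at 11.1, 30.8, 22.8 and 13.1 CPM in feeder-free conditions. Without feeders it was the higher in 4 of 4 lines, yet the groups overlapped, because the levels of the lines were spread widely within each condition. The highest line was 2.51 times the lowest on MEF and 2.78 times in feeder-free conditions, in both cases C over A, and the order of lines was the same, C, D, E, A. The fitted log2 fold change was 0.49 (standard error 0.38), and 0.46 (standard error 0.15) with the line letter as replicate block.

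THY1, or CD90, a lipid-anchored glycoprotein of fibroblasts and of other stem and nerve cells (chromosome 15, 29981019 to 29986913), was at 8.02, 2.87, 3.26 and 3.58 CPM on MEF in lines A, C, D and E, the last 3 from 158 counts each. In feeder-free conditions it was at 5.60, 4.44, 10.3 and 6.37 CPM. Without feeders it was the higher in 3 of 4 lines and lower in line A, whose MEF library was the second highest of the 8. The fitted log2 fold change was 0.60 (standard error 0.39), and 1.05 without the MEF library of line A. THY1 lies within the span of the long noncoding gene LOC101903835, and with the strand of counting not stated their reads may not be separable.

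S100A4, also called fibroblast-specific protein, a calcium-binding protein linked with motility (chromosome 3, 16824260 to 16826547), had few counts. It was at 0.768, 0.472, 0.206 and 0.362 CPM on MEF in lines A, C, D and E and at 0.943, 0.828, 0.283 and 1.04 CPM in feeder-free conditions, from 10 to 54 counts per library. All 4 lines were higher in feeder-free conditions, line D was the lowest in both, and the groups overlapped. The log2 fold change was 0.77 (standard error 0.54).

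PRRX2, the close relative of PRRX1 (chromosome 11, 100059276 to 100110772), showed no common direction. It was at 2.83, 1.18, 1.30 and 1.86 CPM on MEF in lines A, C, D and E and at 1.12, 1.88, 1.11 and 1.58 CPM in feeder-free conditions, higher in 1 of 4 lines. Its log2 fold change was -0.33 (standard error 0.37), so unlike PRRX1 it kept counts of 56 to 114 in the feeder-free libraries. The end of PRRX2 overlaps LOC107132964.

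LOX, lysyl oxidase, which cross-links collagen and elastin (chromosome 7, 31755215 to 31767581), moved in opposite directions between lines. It was at 3.70, 1.56, 1.26 and 6.70 CPM on MEF in lines A, C, D and E and at 1.54, 3.39, 2.72 and 0.192 CPM in feeder-free conditions. Lines A and E were the highest on MEF and the lowest in feeder-free conditions, with log2 ratios of -1.24 and -4.88, while C and D had log2 ratios of 1.10 and 1.09. The fitted log2 fold change was -0.75 (standard error 0.77), and -0.14 without the MEF library of line E.

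**Figure D2:**
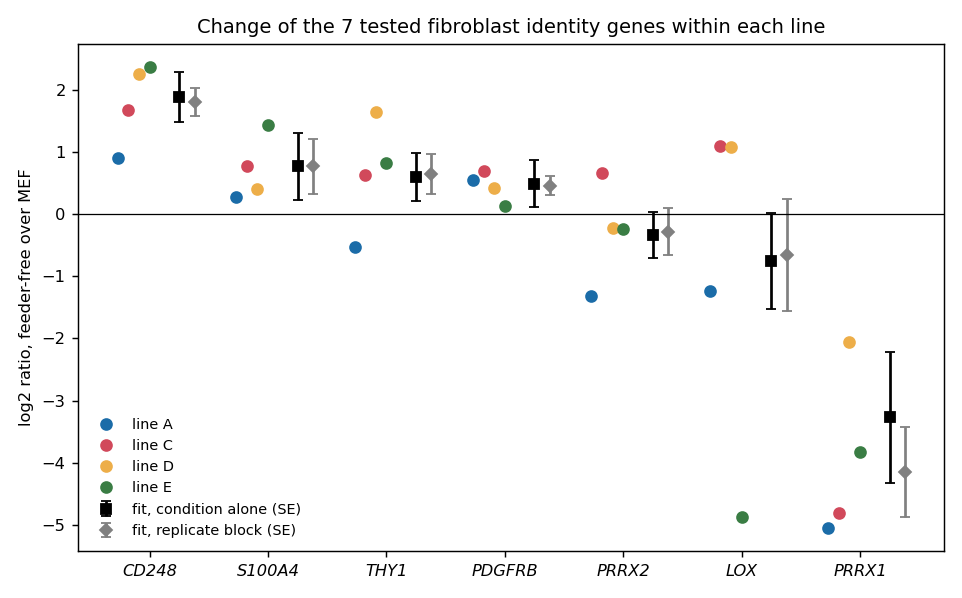
Log2 ratio of feeder-free over MEF (y axis) for the 7 genes in the fit. Coloured points are the 4 lines, black squares the fitted log2 fold change on condition alone and grey diamonds that with the line as replicate block, both with their standard errors. All lines lie above 0 for CD248, S100A4 and PDGFRB and below 0 for PRRX1, and LOX has 2 lines on either side.

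Of the 7 tested genes, 4 lay above 0 in log2 fold change and 3 lay below. Their median was 0.49, beside a median of 0.01 over the 15744 genes. In the fit on condition alone, where a call needed 0.05 after Benjamini-Hochberg adjustment together with a change of 1.5-fold or more, CD248 was called higher, beside 0.724% of all tested genes, and 0 of the 7 were called lower, beside 1.00%. The CD248 call was lost with RLE size factors, with no scaling, and without any 1 of the MEF libraries or of the feeder-free libraries of lines C, D and E. With the line as replicate block, CD248 was called higher, beside 5.52% of all tested genes, and PRRX1 lower, beside 4.53%. Both calls were also made with that block and without line D. CD248 was the 1 gene of 7 whose feeder-free libraries all lay above the MEF libraries, beside 6.21% of tested genes, and PRRX1 the 1 that lay below, beside 8.35%. Because these values were known when the genes were chosen, nothing is read from these counts.

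The order of the lines differed from gene to gene, and of the 7 tested genes PDGFRB alone had the same order in both conditions. On MEF, PRRX1, TWIST2 and CD248 had the same order of lines, D, C, A, E, whereas PRRX2 and THY1 had the order A, E, D, C. LOX had E, A, C, D. Some of these ranks rest on close values. PRRX1 was at 2.62 CPM in D and 2.56 CPM in C, and TWIST2 had 3 counts in A and 2 in E. In feeder-free conditions CD248 and PRRX1 shared the order D, C, E, A. TAGLN, a contractile gene called higher in the fit, also had the order D, C, E, A in feeder-free conditions. The part of these line differences in any change between conditions was not tested.

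Over the 8 libraries, genes with profiles nearest to each gene were ranked by the root mean square difference of log2 CPM centred on the gene's mean. Among the nearest to the median profile of the 7 were LOC509118 at 0.162, VIM at 0.205, NEFL at 0.216 and CUEDC1 at 0.245. For PRRX1 alone, an analysis chosen after its values were seen, the nearest were NFIX at 0.816, GRIA3 at 1.05, COL1A2 at 1.08, NR2F2 at 1.13 and LOC782966 at 1.30, all farther from it than the 5 nearest genes of each other tested gene were, at 0.163 to 0.701. For CD248 alone they were MYL4, TGFB1I1, KLF5, MCAM and GADD45B, at 0.241 to 0.258. These distances are a description of 8 libraries from 4 lines.

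COL1A2, the second chain of type I collagen, and NR2F2, a nuclear receptor of mesenchyme and venous cells, had the same order of lines on MEF as PRRX1 and TWIST2, though not in feeder-free conditions. COL1A2 was at 0.912, 4.59, 4.64 and 0.679 CPM on MEF in lines A, C, D and E and at 0, 0.414, 0.176 and 0.0385 CPM in feeder-free conditions. NR2F2 was at 0.576, 3.27, 4.05 and 0.385 CPM on MEF and at 0, 0, 0.0781 and 0.115 CPM in feeder-free conditions. On MEF lines C and D stood above A and E for PRRX1, TWIST2, COL1A2 and NR2F2 alike. The ranks within C and D and within A and E rest in part on close values, such as 4.59 and 4.64 CPM for COL1A2 in C and D. On condition alone neither was called, with log2 fold changes of -4.08 (standard error 1.08, adjusted p = 0.0747 from edgeR) and -5.29 (standard error 1.15, adjusted p = 0.0509 from edgeR), while the replicate block called both lower, with adjusted p of 0.00166 and 0.00844 from edgeR. Both were named after their values were seen, as genes near PRRX1 in profile, and both passed the filter through their MEF libraries. A difference in this direction was therefore built into their choice, and nothing is concluded from these p-values.

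Some HOX genes, which record position along the body axis in fibroblasts, also had counts on MEF and none in feeder-free conditions. HOXC8 had 3, 19, 18 and 0 counts on MEF in lines A, C, D and E and HOXA5 had 4, 16, 12 and 12, with 0 in all feeder-free libraries. HOXC8 was highest in lines C and D, as PRRX1 was, and HOXA5 was not. By a rule set after these values were seen, at least 30 counts over the MEF libraries and at most 3 in each feeder-free library, 21 genes of 16200 with that many MEF counts were found, 0.13%, and TWIST2 was among them with 5 of the 9 HOX genes that had at least 30 counts over MEF, the other 4 not meeting the rule. The opposite rule found 95 genes of 16801, 0.565%. Both rules used raw counts, and the feeder-free library of line D was the deepest. The study also describes subtracting feeder reads from the MEF matrices, and whether that was done before deposit could not be traced. Nothing is therefore read from the comparison of these numbers. The part of feeder-derived reads in the counts of PRRX1, TWIST2, FAP, COL1A2, NR2F2 and the HOX genes was not tested.

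**Figure D3:**
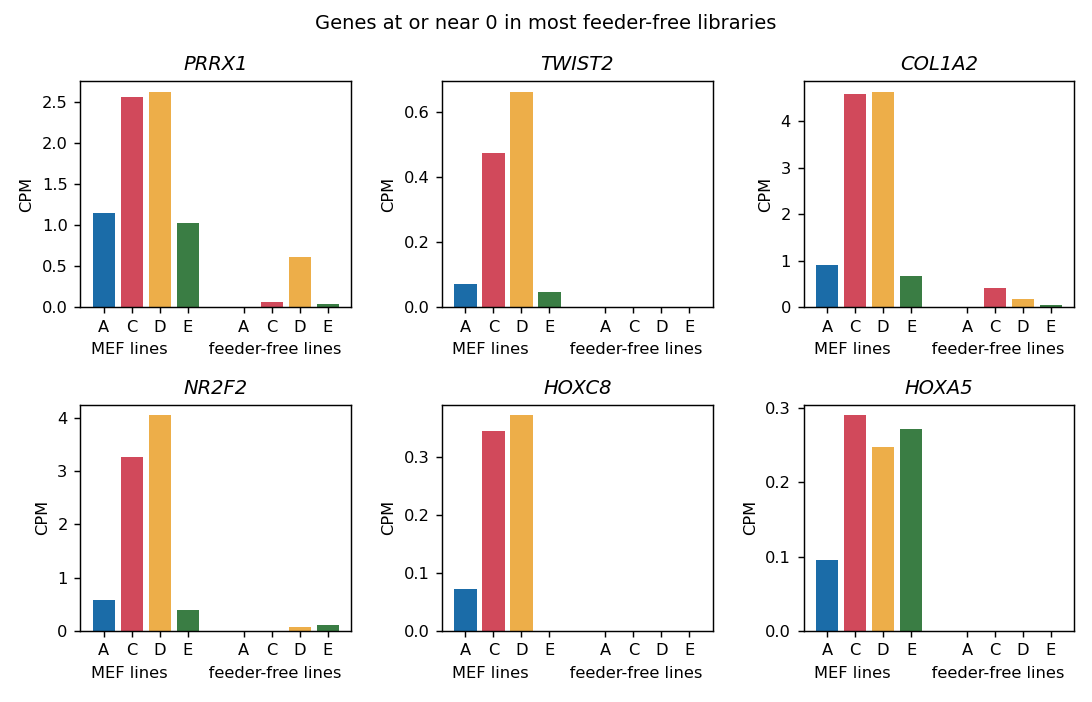
Level in CPM (y axis, linear from 0) of PRRX1, TWIST2 and 4 genes named after their values were seen, in the 4 MEF libraries (left bars) and the 4 feeder-free libraries (right bars), 1 bar per library and 1 colour per line. On MEF the bars of lines C and D are the highest for 5 of the 6 genes, HOXA5 being the other, and feeder-free bars are at or near 0 except PRRX1 in line D and COL1A2 in line C.

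Abundant fibroblast transcripts, a separate list of 36 genes of matrix and secretion, did not as a list follow PRRX1 and TWIST2. Like the 10, they were chosen with earlier results of these data known. They summed to 3765 to 4573 CPM on MEF and 3503 to 7589 CPM in feeder-free conditions, a mean log2 difference of 0.26, higher in 3 of 4 lines (two-sided exact permutation test of log2 sums, p = 0.400, adjusted p = 0.509 over 14 lists, the smallest unadjusted p being 0.0286). The sum was largely set by genes abundant in both conditions, such as VIM and SERPINH1. A change in CPM as small as that of PRRX1 or COL1A2 could not show in it, so the test of the sum cannot decide on such genes. LGALS1 was the only gene of the list at 0 in all libraries. Of the 35 tested, 0 were called on condition alone in either direction. The replicate block called 8 higher, beside 5.52% of all tested genes, and COL1A2 lower, beside 4.53%. Their median log2 fold change was 0.20. VIM, the intermediate filament of mesenchymal cells, averaged 755 ± 204 CPM on MEF against 825 ± 266 CPM without feeders (SD, n = 4 each), and SERPINH1, a collagen chaperone, had 572 ± 34.4 and 930 ± 263 CPM (SD, n = 4 each). COL3A1, another fibrillar collagen, named after its values were seen, averaged 0.769 ± 0.593 CPM on MEF against 4.69 ± 4.17 CPM without feeders (SD, n = 4 each), the opposite order to COL1A2. It was among the 8 called higher with the replicate block.

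The ligands of PDGFRB were examined beside it. Of 4 PDGF ligands, 3 were tested and 0 called on condition alone, while PDGFD stayed under the filter. PDGFA and PDGFB were called higher with the replicate block, beside 5.52% of all tested genes. PDGFB, the ligand that attracts pericytes to PDGFRB, averaged 1.99 ± 1.67 CPM on MEF against 16.4 ± 14.7 CPM without feeders (SD, n = 4 each). Its log2 fold change was 3.04 ± 0.82 (SE; edgeR adjusted p = 0.0790), or 2.84 ± 0.31 (SE; edgeR adjusted p = 0.00114) with the replicate block. For PDGFA, which also binds the related receptor PDGFRA, it was 0.99 in both fits (edgeR adjusted p = 0.0554 and 0.0148). Both were higher in 4 of 4 lines.

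The relatives of LOX, S100A4 and FAP were examined as well. LOXL1, LOXL2 and LOXL3, lysyl oxidase relatives, were tested and none was called in either fit, and LOXL2 and LOXL1 had log2 fold changes of 0.79 and 0.49 (adjusted p = 0.405 and 0.312 from edgeR). All 7 tested genes of the S100A family lay above 0 in log2 fold change on condition alone, with a median of 1.04. Yet S100A10 was at -0.09 with the replicate block and higher without feeders in 2 of 4 lines. S100A11, at 1.65 (standard error 1.99), was higher in 1 of 4 lines. None of the 7 was called on condition alone. The replicate block called S100A2 and S100A14 higher, beside 5.52% of all tested genes. S100A2 averaged 53.8 ± 44.5 CPM on MEF against 111 ± 64.6 CPM without feeders (SD, n = 4 each). S100A16 was at 0.42 on the log2 scale (edgeR adjusted p = 0.184). Among the prolyl and dipeptidyl peptidases related to FAP, 6 were tested and 0 called in either fit, with PREP and DPP9 at log2 fold changes of -0.01 and 0.22 (adjusted p = 0.989 and 0.610 from edgeR).

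Other mesenchymal transcription factors and surface genes lay on both sides of 0. Of 25 factors, 13 were tested, 9 of these below 0, with a median log2 fold change of -0.52. None was called on condition alone, and EBF1, NR2F2 and HIC1 were called lower with the replicate block, beside 4.53% of all tested genes. TWIST1, the relative of TWIST2, averaged 13.8 ± 5.17 CPM on MEF against 10.1 ± 5.00 CPM without feeders (SD, n = 4 each; log2 fold change -0.46, edgeR adjusted p = 0.506), so it had counts in the libraries where TWIST2 had none. TCF4 averaged 147 ± 13.8 CPM on MEF against 103 ± 14.5 CPM without feeders (SD, n = 4 each; log2 fold change -0.52, edgeR adjusted p = 0.0677). The summed level of the factors was 173 to 199 CPM on MEF and 117 to 145 CPM without feeders, lower in 4 of 4 lines (two-sided exact permutation test, p = 0.0286, adjusted p = 0.0800 over 14 lists). TCF4 made up most of this sum, so the test of the sum was largely a test of TCF4. Of 16 tested surface genes ROR2, a WNT5 receptor, rose by 1.55 ± 0.31 (SE) on the log2 scale (edgeR adjusted p = 0.0451) and NCAM1, a neural and mesodermal adhesion molecule, was lower, with means of 46.3 ± 17.1 against 17.0 ± 3.01 CPM (SD, n = 4 each; edgeR adjusted p = 0.0391). Both calls held with the replicate block, which added MCAM as higher, beside 5.52% of all tested genes called higher and 4.53% lower. On condition alone the ROR2 and NCAM1 calls were lost without any 1 of the MEF libraries or of the feeder-free libraries of lines C, D and E. So were those of TAGLN, CNN1 and PTGS2.

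Contractile genes, a trait of myofibroblasts and smooth muscle, did not pass as a summed list. On condition alone 2 of 11 were called higher, beside 0.724% of all tested genes. All 11 were tested and had a log2 fold change above 0, with a median of 1.86. TAGLN and CNN1 rose on condition alone, by 4.23 ± 0.82 and 1.86 ± 0.38 (SE) on the log2 scale (edgeR adjusted p = 0.0414 and 0.0486), and the replicate block called 11 of 11 higher, beside 5.52% of all tested genes. Their sum was 597 to 894 CPM on MEF and 822 to 5295 CPM without feeders (exact permutation test, two-sided, p = 0.0571, adjusted p = 0.133). Their part in the level of CD248 was not tested.

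Markers of other cell types were summed in the same way. Primitive streak and mesoderm markers, such as EOMES and GSC, summed to 5.91 to 9.95 CPM on MEF and 9.99 to 15.3 CPM in feeder-free conditions, with MSGN1 at 0 in all libraries. Endothelial and blood markers, such as VWF and CD68, summed to 7.08 to 12 and 10.9 to 22.5 CPM. Endoderm markers, such as FOXA2 and HNF4A, summed to 6.10 to 16.6 and 5.62 to 8.45 CPM, with AFP at 0. Trophoblast markers summed to 22.7 to 38.5 and 42.8 to 115 CPM, with CDX2 and PAG2 at 0. Most of this sum was KRT7, with means of 24.3 CPM on MEF and 68.3 CPM without feeders. PTGS2, a prostaglandin synthase, rose by 2.43 ± 0.43 (SE) on the log2 scale (edgeR adjusted p = 0.0373), from 0.278 to 1.51 CPM. The transcription factors of this list were mixed, with GATA2 and TFAP2A at -1.43 and -0.83 and GATA3 and TFAP2C at 0.88 and 0.19. Neural markers summed to 255 to 410 and 248 to 468 CPM, mostly from TUBB3 and NES, whose log2 fold changes were -0.43 and 0.65. ZIC1, of the same list, averaged 11.1 CPM on MEF against 2.06 CPM without feeders. Of the genes of these marker lists, the replicate block called EOMES, SPI1, KRT7 and PTGS2 higher and GATA2 and ZIC1 lower. None of the 14 lists passed an adjusted P-value under 0.05 in the two-sided exact permutation test of its sum. The smallest P-value that test can give, 0.0286, became 0.08 after adjustment here. Lists with fully separate groups therefore could not pass, and nothing is read from their not passing. The part of other cell types in the levels of the 10 genes was not tested. Over all lists, 178 genes beside the 10, 130 were tested, of which 4 were called higher on condition alone, 3.08% beside 0.724% of all genes, and 1 lower, 0.769% beside 1.00%. With the replicate block 29 were called higher, 22.3% beside 5.52%, and 7 lower, 5.38% beside 4.53%.

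**Figure D4:**
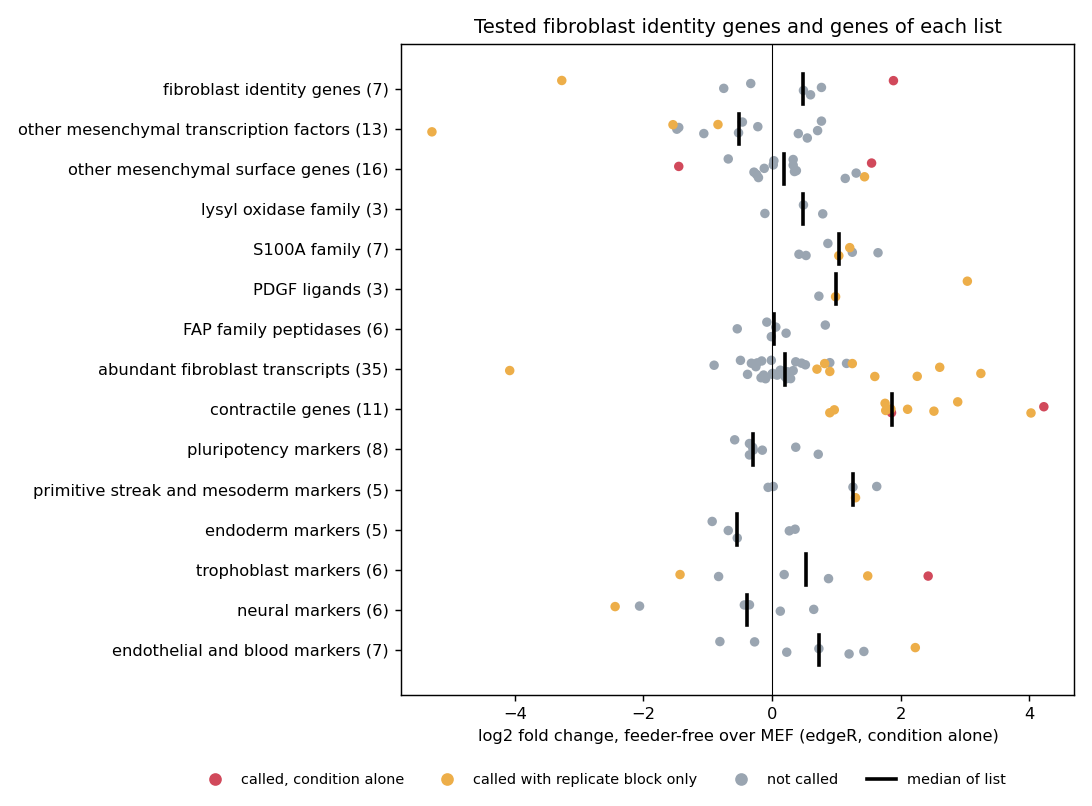
Log2 fold change of feeder-free over MEF (x axis) for each tested gene of the fibroblast identity set and of 14 other lists (rows, number tested in parentheses). Red points were called on condition alone, amber points with the replicate block only, grey points in neither, and black bars mark the list medians. The contractile genes lie wholly above 0, and the far left points are NR2F2, COL1A2 and PRRX1.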

How the data were processed

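The deposited values were raw gene counts of 8 libraries. In the authors' pipeline reads were trimmed with Trimmomatic, aligned with STAR to ARS-UCD2.0, cleared of optical duplicates and of alignments with low mapping quality, and counted with featureCounts (Subread 1.6.2 in the submitters' notes). The strand setting is not given in the sources used here.

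The table listed 32640 genes, 3 of them without values and not used. Counts were scaled by TMM and fitted with edgeR 4.0.16 in R 4.3.3 (filterByExpr, glmQLFit, glmQLFTest) on condition alone, and P-values were adjusted by Benjamini-Hochberg over the 15744 genes left by the filter. Fits were checked on simulated counts. Per-line log2 ratios used a prior count of 2. Coordinates and overlaps came from the RefSeq gene table of ARS-UCD2.0, which holds gene spans. CPM was not corrected for transcript length. List sums, and the parts of single genes in them, therefore compare counts and not numbers of transcripts.

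Libraries were paired by line letter, since each line was grown on both substrates. Deviations from the condition means correlated at 0.421 to 0.664 within lines and at -0.523 to 0.249 between them, and a fit with line as replicate block was made. Libraries of a condition were not duplicates (chi-square per degree of freedom 40.8 or more).

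The 10 genes and all lists were chosen with earlier results of these data known. Of each list, called genes (up to 6) or else the 2 with the highest CPM were named, and genes nearest in profile were the 5 with the smallest root mean square difference, of which 1 is not reported here. Tried in turn were DESeq2 1.42.0, RLE size factors or no scaling, no filter or a stricter one, the replicate block, no fold change threshold and each library left out. No sequence of these genes was at hand, and none is shown.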

Additional observations from a re-analysis of the deposited data

Results flagged for a closer look

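Among 44 groups of 4 libraries examined (7 genes and 15 list sums in 2 conditions), 2 held a library far from the other 3, where about 2.2 would be given by chance. The summed FAP-related peptidases were lowest for line A without feeders, at 7.48 log2 CPM against 7.66 to 7.68 in the others. The summed trophoblast markers were highest in the MEF library of line A, at 5.27 log2 CPM against 4.51 to 4.55. None of the 7 tested fibroblast identity genes had such a library on the log2 scale, and CPM without log was not examined by this rule. In CPM, PRRX1 without feeders was at 0.606 in line D against 0 to 0.0565 in the others. THY1 on MEF was at 8.02 CPM in line A against 2.87 to 3.58 CPM.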

How the results depend on the processing

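On condition alone, 114 genes were called higher and 158 lower. The counts were 73 and 97 with no filter on low counts, 695 and 516 with DESeq2, and 869 and 713 with the replicate block (a paired fit by line). At least 10 counts in every library gave 199 higher, and no scaling gave 91 lower. Leaving out 1 library gave 0 to 259 higher and 0 to 231 lower. Of the fibroblast identity genes, 1 was called higher, but 0 with RLE size factors or with no scaling, and 0 to 1 without 1 library. None was called lower on condition alone, against 1 (PRRX1) with DESeq2, with the replicate block, and with the block and without line D, which was chosen after seeing the data. Of the other list genes, 4 were called higher, 2 with no scaling, 8 with at least 10 counts, 26 with DESeq2 and 29 with the replicate block. For those called lower, 1 became 2 with at least 10 counts, 2 with no fold change threshold, and 7 with DESeq2 or the replicate block. Without 1 library they came to 0 to 17 higher and 0 to 1 lower. Fewer genes tested or fewer samples is part of some settings, and otherwise the cause was not tested. The list sums passed no adjusted test under any scaling. An exact permutation test of 4 against 4 libraries cannot go below 0.0286, and a sign-flip test over 4 pairs cannot go below 0.125. In the main setting fully separate sums were at 0.08 after adjustment, so they could not pass. Every log2 fold change of the 7 genes kept its sign under every setting in which it was fitted. Counts near 0 limit what can be said of TWIST2, FAP, S100A4 and TCF21.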

Other observations

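From the lists beside the 10 genes, 2 that separated the lines in the same way in both conditions are given as examples, named after their values were seen and with no count made of others. S100A11, a calcium-binding protein of the family of S100A4, had 46 and 110 counts on MEF in lines A and D and 16 and 1040 in feeder-free conditions, and 0 counts in lines C and E in both conditions. MFAP2, a microfibril protein, was at 32.8 and 18.9 CPM on MEF in lines A and D against 2.78 and 2.13 CPM in C and E, and at 22.5 and 33.1 against 3.16 and 0.769 CPM in feeder-free conditions. This split of the lines, A and D against C and E, was not that of PRRX1 and TWIST2 on MEF, C and D against A and E. No test was made of either split.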
